A study of Mus musculus with 2 samples.

Results

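Cathepsins are the proteases of the lysosome, and cystatin C is a secreted protein that blocks the cysteine cathepsins. The 10 genes described here are 9 cathepsin genes (Ctsa, Ctsb, Ctsc, Ctsd, Ctsf, Ctsh, Ctsl, Ctss and Ctsz) and Cst3, the gene of cystatin C. They were taken by symbol from the 55357 genes listed in the files, and each symbol matched 1 gene. They were read in 2 single-cell RNA libraries of cortical cells from mice aged 8 weeks, sorted for the surface proteins CD45 and CD11b, which together mark microglia and other myeloid cells. One library came from wild-type mice and 1 from moesin knockout mice, with 5 to 6 animals pooled in each. The design text names C57BL/6 for the knockout animals. The sources used here do not give the sex of either pool, the strain behind the wild-type pool or the deleted stretch of Msn, the moesin gene. Each genotype had a single library, which allows no test, so every interval below is a 95% interval that covers counting error only, and any difference between pools, sorts or library preparations cannot be told apart from genotype.

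Cathepsins are made as inactive precursors, carried to the lysosome largely by mannose 6-phosphate receptors, and activated there at low pH. Ctsd encodes an aspartic protease, Ctsa a serine carboxypeptidase that also shields sialidase and beta-galactosidase, and the remaining 7 encode cysteine proteases. Among these, Ctss works at neutral pH and trims the invariant chain of MHC class II, Ctsc activates granule serine proteases, Ctsb, Ctsh and Ctsz act partly or wholly as exopeptidases, and Ctsl and Ctsf are endopeptidases. In the brain, microglia are a main source of cathepsin RNA, and Cst3 is among the most abundant RNAs of these cells. Lysosomal genes are a known target group of the transcription factor TFEB and its relatives, which bind the E-box core CACGTG.

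The promoters are shown because lysosomal genes are a known target group of TFEB and its relatives. Whether each member is such a target was not tested. RefSeq promoters of build GRCm38.p6, from 250 bases before to 50 bases after each start, were matched for 8 of the 10 genes, and Ctsb and Ctsh are named only. CACGTG reads the same on both strands, and 4 of the 8 matched genes held it, against 8.09% of the 27025 symbols in the table. The longer palindrome TCACGTGA, which contains it, was in 2 of the 8 genes, Ctsa and Ctsd, and in 0.974% of the 32851 promoters. That last share is over promoters and the 2 of 8 over genes, so they are unlike measures. For the core, the share was 7.15% of promoters and 8.09% of symbols. Each window below is 30 bases, 5′ to 3′ on the gene's strand, with the 6-base core in capitals. The Ctsa window holds cores that begin 12 bases before and 6 bases after the start, those of Ctsd begin 245 and 98 bases before it, that of Ctsf 79 and that of Ctsl 236 bases before it.
Ctsa, chr2:164833757-164833786, plus strand: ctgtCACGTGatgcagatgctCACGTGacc
Ctsd, chr7:142388048-142388077, minus strand: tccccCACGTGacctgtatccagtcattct
Ctsd, chr7:142387908-142387937, minus strand: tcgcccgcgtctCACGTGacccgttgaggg
Ctsf, chr19:4855074-4855103, plus strand: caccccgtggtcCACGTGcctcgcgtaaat
Ctsl, chr13:64370739-64370768, minus strand: ggcgttagaagcCACGTGctgatctaaatt
A match describes letters in a window and not a bound site. The microglial knockout over wild-type log2 ratios relative to the median gene are explained below. For the 4 genes with the core they were 0.61 for Ctsa, 0.12 for Ctsd, 0.76 for Ctsf and 0.27 for Ctsl. Among the matched genes without it they were 1.01 for Cst3, 0.57 for Ctss, 0.20 for Ctsz and 0.10 for Ctsc. Whether the core has a part in these ratios was not tested.

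The wild-type library held 5842 barcodes and the knockout library 9038, with 68576464 and 67575835 UMIs (tagged molecules). Cells with at least 500 genes and at most 10% mitochondrially encoded UMIs numbered 5577 and 7573, with medians of 7178 and 5455 UMIs. The targeted gene, Msn, read 320 CPM in wild-type and 20.5 CPM in knockout microglia, 702 and 51.9 CPM in monocytes, and 209 and 6.98 CPM (5 UMIs and 1 UMI) in border macrophages. The libraries shared 13 barcode sequences, of which 13 and 12 were kept cells. Microglia were cells with a UMI of both P2ry12 and Tmem119 (4968 and 4430 cells). Monocytes carried Ace or Ly6c2 (21 and 372 cells) and border macrophages both Mrc1 and Pf4 (7 and 38 cells), with neither microglial gene. Microglial cells that also passed another gate were set aside as mixed (307 and 1272 cells). A further 273 and 1404 kept cells, 4.90% and 18.5%, fell in no class. Microglia were thus 89.1% of kept wild-type and 58.5% of kept knockout cells, and the part of this unequal selection in the ratios was not tested. Against fuller marker lists, gate genes included, the 10 microglial markers summed to 27172 and 25961 CPM in microglia, the 10 monocyte markers to 10459 and 8813 CPM in monocytes, and the 10 border markers to 7017 and 11242 CPM in border macrophages. The wild-type monocyte and border values rest on 145228 and 23943 UMIs in all, which limits their precision.

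In microglia Cst3 far exceeded each cathepsin, and Ctsd and Ctss led the proteases. Levels are CPM, the UMIs of a gene scaled by all UMIs of the class. The 3′ protocol counts 1 tag per molecule, so they were not divided by gene length. Cst3 measured 39692 CPM (exact Poisson interval 39641 to 39743) in wild-type and 65488 CPM (65401 to 65574) in knockout microglia, or 3.97% and 6.55% of all UMIs. Ctsd followed at 7990 and 7077 CPM, and Ctss at 4935 and 6003 CPM. Ctsb (1773 and 1761 CPM), Ctsz (1702 and 1601 CPM) and Ctsl (1243 and 1225 CPM) formed a middle group. Ctsa (695 and 866 CPM), Ctsh (700 and 657 CPM), Ctsc (415 and 363 CPM) and Ctsf (186 and 258 CPM) were lowest. Neighbours in this order were separate beyond counting error in each library, except Ctsh and Ctsa in the wild-type library, whose intervals overlapped and which changed places in the knockout library.

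**Figure D1:**
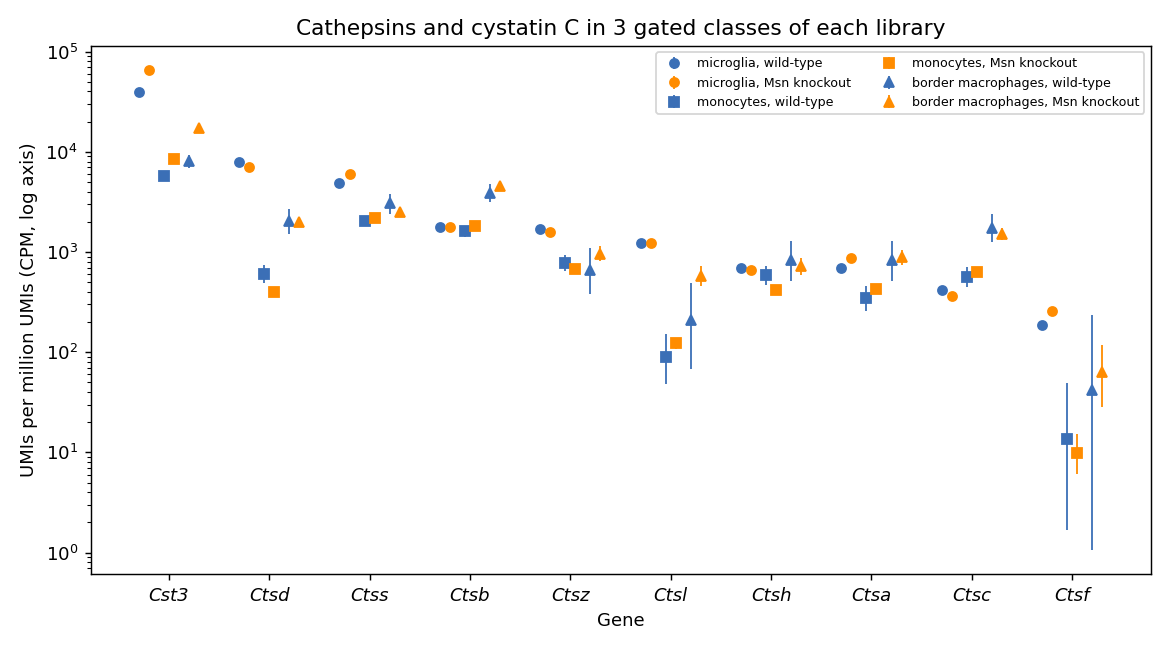
Level of each gene in CPM (log axis) in microglia (circles), monocytes (squares) and border macrophages (triangles) of the wild-type (blue) and Msn knockout (orange) library, with exact 95% Poisson intervals. Cst3 stands above every cathepsin in microglia, while Ctsd, Ctsl and Ctsf drop by an order of magnitude in monocytes and Ctsb and Ctsc stand highest in border macrophages.

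Cst3, Ctsf and Ctsa were higher in knockout microglia, and no member was lower. A gene was called when its knockout over wild-type ratio differed at least 1.5-fold (0.58 on the log2 scale) from the median of the 8713 genes at 10 CPM or more. That median gene was itself lower by CPM in the knockout library, with a log2 ratio of -0.29. By this rule 3 of 10 members were higher, where 14.8% of all measured genes were, and 0 were lower, where 12.5% were. On the CPM scale itself only Cst3 passed 1.5-fold, where 4.35% of genes were higher and 30.3% lower. The members' median relative log2 ratio was 0.28, against 0 by construction for all measured genes, and each of the 10 was on the positive side of the median gene; Ctsd left that side with mixed cells counted in (-0.01) and over all kept cells (-0.10).

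The Cst3 ratio was 1.65-fold by CPM and 2.02-fold relative to the median gene, with a relative log2 ratio of 1.01 (1.01 to 1.02). It was the largest of the members. Ctsf had a relative log2 ratio of 0.76 (0.72 to 0.80), with a CPM ratio of 1.39. Ctsa stood just inside the threshold at 0.61 (0.59 to 0.63), and Ctss just outside it at 0.57 (0.57 to 0.58). Both had CPM ratios close to each other, 1.25 for Ctsa and 1.22 for Ctss. Ctsb (0.28), Ctsl (0.27), Ctsz (0.20), Ctsh (0.20), Ctsd (0.12) and Ctsc (0.10) lay within 1.22-fold of the median gene, and by CPM these 6 had ratios of 0.874 to 0.993. The Ctsa call was lost when mixed cells were counted in (0.56) or the floor was 30 CPM (0.53), and the Ctsf and Ctsa calls were lost on the CPM scale and over all kept cells.

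The libraries differ in depth, so the ratios were repeated within 4 ranges of UMIs per cell. Cst3 was 1.99-fold higher by CPM in the knockout cells under 3000 UMIs, 1.54-fold from 3000, 1.57-fold from 6000 and 1.69-fold from 12000 UMIs. In those ranges the wild-type level was 30825, 42655, 42751 and 38082 CPM and the knockout level 61304, 65816, 67216 and 64248 CPM, so the highest wild-type value was below the lowest knockout value. Ctss gave 1.44, 1.20, 1.20 and 1.21-fold, and Ctsa 1.41, 1.31, 1.25 and 1.22-fold. Ctsf gave 1.15, 1.34, 1.33 and 1.42-fold, and in the lowest range its log2 CPM ratio was 0.20 (-0.15 to 0.57) and its relative ratio, 0.45, was under the threshold. Ctsd had a ratio below 1 in each range, at 0.983, 0.880, 0.880 and 0.867-fold. The lowest range held 243 wild-type and 536 knockout cells.

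**Figure D2:**
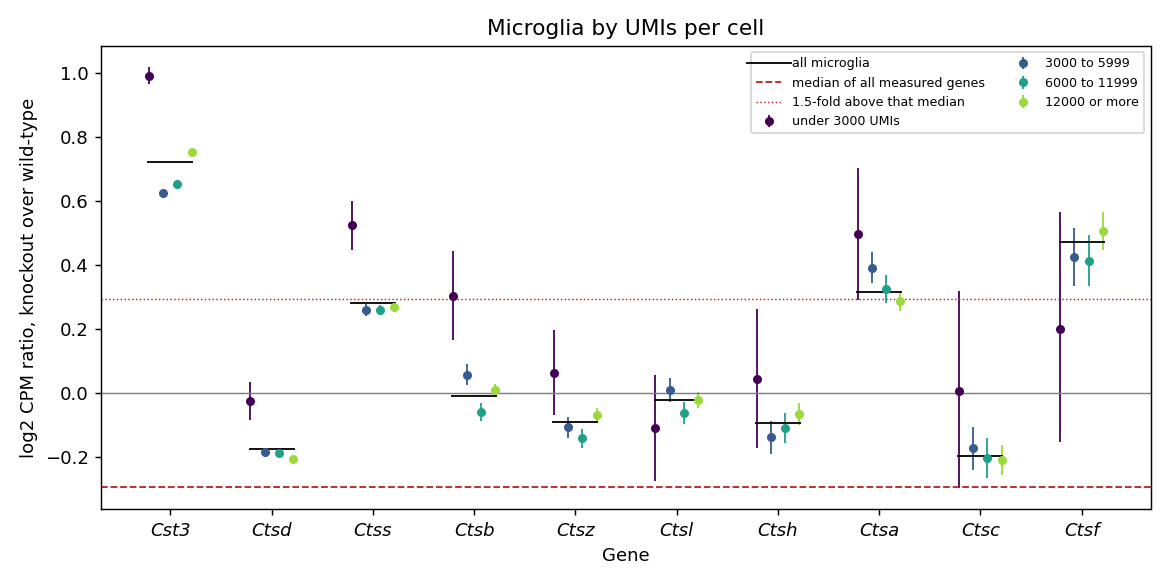
Log2 ratio of CPM, knockout over wild-type, for each gene in microglia of 4 depth ranges (points, exact conditional 95% intervals) and in all microglia (black bars). The dashed line is the median of all measured genes and the dotted line lies 1.5-fold above it; Cst3 is above the dotted line in every range and Ctsd is between the 2 lines.

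Other values also differed between the libraries. In microglia the 8 stress and early-response genes summed to 25023 CPM in wild-type and 30280 CPM in knockout cells, and 5 of the 8 were called higher. Among these, Hspa1a, a heat shock chaperone, was at 104 and 425 CPM, and Fos, an early-response transcription factor, at 7429 and 12471 CPM. Of the 3 within the threshold, the early-response gene Egr1 was at 5219 and 3372 CPM, the chaperone gene Hsp90aa1 at 445 and 392 CPM and Jun at 11547 and 13002 CPM. The relative log2 ratio of Cst3 was 1.00 in microglia with no UMI of Hspa1a or Hspa1b and 1.01 in all microglia. Median mitochondrially encoded shares of microglia were 1.40% and 0.471%, and red-cell genes summed to 89.8 and 477 CPM in them. The part of stress, of the mitochondrial share and of red-cell RNA in the Cst3 difference was not tested. In barcodes under 500 genes, which are outside the microglia, Cst3 had the opposite order, at 18705 CPM (wild-type) and 15696 CPM (knockout), which is 47.1% and 24.0% of the microglial level.

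The Cst3 difference was spread over the microglial population. After each cell was thinned to 2000 UMIs, which left out 136 wild-type and 343 knockout cells, the wild-type cells had a median of 80 Cst3 UMIs and the knockout cells 130. The 10th and 90th percentiles were 54 and 116 for wild-type and 88 and 180 for knockout cells. In the knockout library 93.1% of cells lay above the wild-type median and 65.2% above the wild-type 90th percentile. For Ctss, whose mean was 10.1 and 12.2 UMIs, 22.2% of knockout cells lay above the wild-type 90th percentile, where 8.40% of wild-type cells did. Cell-to-cell spread, measured as variance over mean, which can rise with the level, was also widest for Cst3. It was 8.00 and 11.9, against 2.19 and 2.32 for Ctsd, 1.46 and 1.92 for Ctss and 1.63 and 1.51 for Ctsb. Mean UMIs were 82.8 and 133 for Cst3 but 3.44 and 3.49 for Ctsb, so this order does not compare spread at an equal level.

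**Figure D3:**
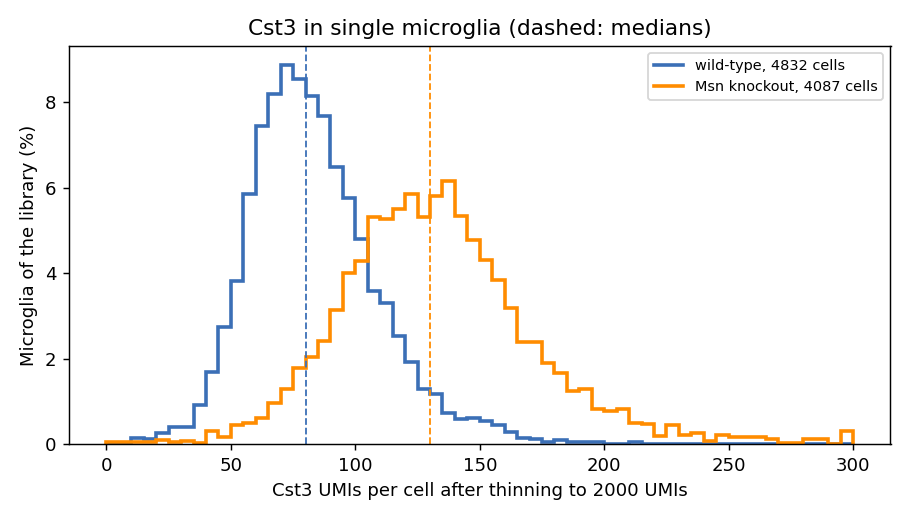
Share of microglia (%) by Cst3 UMIs per cell after thinning to 2000 UMIs, in steps of 5 UMIs, for 4832 wild-type and 4087 knockout cells; the last step holds all cells at or above it. The medians, 80 and 130 UMIs, are dashed, and the distributions overlap with a single peak region in each.

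Within each library, the 25% of microglia with the most Cst3 had more Ctss and Ctsd than the 25% with the least. Mean Ctss was 8.69 and 11.5 UMIs per 2000 in the low and high cells of the wild-type library, and 10.6 and 14.3 in those of the knockout. For Ctsd the means were 15.1 and 17.6 (wild-type) and 12.9 and 15.8 (knockout). Ctsc went the other way, from 0.863 to 0.772 and from 0.770 to 0.672. These are descriptions of cells of 1 library each, which share their source.

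On the CPM scale, total cathepsin RNA was nearly level between the libraries while its make-up and its ratio to Cst3 were not. The 9 cathepsins summed to 19639 CPM in wild-type and 19810 CPM in knockout microglia. Relative to the median gene the sum had a log2 ratio of 0.30, on the knockout side. Ctsd made up 40.7% of these UMIs in wild-type and 35.7% in knockout cells, and Ctss 25.1% and 30.3%, so that Ctss per Ctsd UMI was 0.618 (0.615 to 0.620) and 0.848 (0.843 to 0.853). Cst3 UMIs per UMI of the 7 cysteine cathepsins, a ratio chosen after the values were seen, were 3.62 (3.61 to 3.63) in wild-type and 5.52 (5.50 to 5.54) in knockout microglia. Over the 4 depth ranges this ratio ran from 3.42 to 3.85 for wild-type and from 5.48 to 5.60 for knockout cells, so the ranges did not overlap.

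Monocytes had a different set of cathepsins from microglia, with little Ctsd, Ctsl and Ctsf. Classes were compared within each library over the 3465 genes at 50 CPM or more, and a member was counted when it passed 1.5-fold relative to the median gene in both libraries. A gene counted as measured when it reached that floor in either class of each library. Of the 10, 7 were lower in monocytes (27.2% of all measured genes were) and 0 higher (29.7% were). Ctsf reached the floor in microglia only, so it could not have been counted as higher, and without it 6 of 9 were lower. Ctsd was 606 CPM in wild-type and 401 CPM in knockout monocytes, 13.2-fold and 17.7-fold below microglia. Ctsl was 89.5 and 123 CPM, 13.9-fold and 10.0-fold below. Cst3 was 5722 and 8474 CPM, 6.94-fold and 7.73-fold below, and Ctss, at 2031 and 2182 CPM, was 2.43-fold and 2.75-fold below. Ctsa and Ctsz were the remaining lower members with Ctsf. Ctsb (1604 and 1815 CPM), Ctsc (565 and 626 CPM) and Ctsh (585 and 419 CPM) did not pass in both libraries, and Ctsc had 136% and 173% of its microglial level. Relative to the median gene Ctsc was 1.499-fold higher in the wild-type library, just under the threshold, and 1.84-fold higher in the knockout library.

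RNA of microglial genes in monocytes gives a background for these values. The median level of 8 microglial marker genes in monocytes was 6.12% of their microglial level in wild-type and 3.75% in knockout cells. Ctsf in monocytes, from 2 and 20 UMIs, was at 7.40% and 3.83% of the microglial level, which is at that background. Ctsd was at 7.58% and 5.66% and Ctsl at 7.20% and 10.0%, while Cst3 was at 14.4% and 12.9% and the other 6 members at 36.3% or more. Lymphoid cells of the knockout library (57 cells with at least 2 UMIs of lymphoid markers) had Cst3 at 4.84%, Ctss at 7.25% and Ctsl at 3.60% of the microglial level, but Ctsd at 15.0%, or 1060 CPM, above the 401 CPM of monocytes. The wild-type library had 1 such cell and it carried border macrophage markers, so it was not used.

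After thinning to 2000 UMIs, Ctsd was found in 99.98% of wild-type and 99.88% of knockout microglia (unthinned, 99.92% and 99.71%) but in 55.3% (49.9 to 60.6, exact binomial) of knockout monocytes (unthinned, 85.2%). In the 20 wild-type monocytes deep enough it was 85% (62.1 to 96.8; unthinned, 90.5%), an interval that did not overlap that of knockout monocytes. The same share in knockout lymphoid cells was 89.3% (78.1 to 96.0). Ctsl was found in 89.3% and 88.0% of microglia, 10% (1.23 to 31.7) of wild-type monocytes, 20.3% (16.24 to 24.95) of knockout monocytes and 8.93% (2.96 to 19.6) of lymphoid cells. Ctsb, in contrast, was in 94.9% and 95.6% of microglia, 90% of wild-type and 92.0% of knockout monocytes and 39.3% of lymphoid cells. Ctsf was in 30.8% of wild-type and 39.6% of knockout microglia and in 2.29% of knockout monocytes. Unthinned, Ctsf was in 5.11% of knockout monocytes and 5.26% of lymphoid cells, a share read here as background. Median depths were 5115 UMIs for knockout monocytes and 4591 for lymphoid cells.

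The monocytes were not uniform. Cells with Ace only, a marker of patrolling monocytes, numbered 9 and 229, and cells with Ly6c2 only, a marker of classical monocytes, 8 and 64. Ctsb was 2752 CPM (2299 to 3267) in wild-type Ace-only cells and 948 CPM (728 to 1213) in Ly6c2-only cells, and 2025 CPM (1940 to 2112) and 1058 CPM (968 to 1154) in the knockout library. Cst3 had the same order, at 8170 and 3806 CPM (wild-type) and 8951 and 6100 CPM (knockout). Ctsc had the opposite order, at 296 CPM (162 to 497) and 737 CPM (545 to 975) among wild-type cells and 551 CPM (507 to 597) and 877 CPM (795 to 965) among knockout cells. For these 3 genes the intervals of the 2 subsets did not overlap in either library. Ctss did not separate the subsets in the knockout library beyond counting error, at 2034 CPM (1949 to 2122) and 2187 CPM (2057 to 2324). The 8 neutrophil markers summed to 21.2 CPM in Ace-only and 4649 CPM in Ly6c2-only cells of the wild-type library, and to 69.0 and 2592 CPM in those of the knockout. Ly6g and Camp were at 0 in both wild-type subsets and in knockout Ace-only cells, and Camp in knockout Ly6c2-only cells. The median of the 8 microglial marker genes, as a share of the microglial level, was 10.7% and 5.52% (wild-type) and 3.75% and 4.13% (knockout). The part of either in these differences was not tested.

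Border macrophages, the macrophages of the meninges and perivascular spaces, had more Ctsb and Ctsc than microglia. Over 3182 measured genes, 2 members were higher than in microglia in both libraries (13.4% of all genes were) and 5 were lower (16.5% were). Ctsb was 3884 CPM (3135 to 4758) and 4550 CPM (4207 to 4913), 2.19-fold and 2.58-fold above microglia. Ctsc was 1754 CPM (1264 to 2371) and 1507 CPM (1313 to 1722), 4.23-fold and 4.16-fold above. Cst3 was 8019 and 17466 CPM, 4.95-fold and 3.75-fold below microglia, and Ctsd was 2047 and 1989 CPM, 3.90-fold and 3.56-fold below. Ctsl, Ctsz and Ctsf were also lower. Ctsf, at 1 UMI in the wild-type border cells, was under the floor there, and without it 4 of 9 were lower. The median level of the 8 microglial marker genes in border macrophages was 10.5% and 16.0% of their microglial level. With at most 5% mitochondrially encoded UMIs, which left 5 wild-type border cells, the Ctsb call was lost and Ctss joined the lower members. The counts of 7 in monocytes and 7 in border macrophages both became 0 when mixed cells were counted into the classes. Mixed cells passed the microglial gate by definition and outnumbered both classes (307 and 1272 cells). As a group they had Ctsd at 89.8% and 76.5% and Cst3 at 87.8% and 88.6% of the microglial level. This setting therefore cannot test the contrast with microglia.

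**Figure D4:**
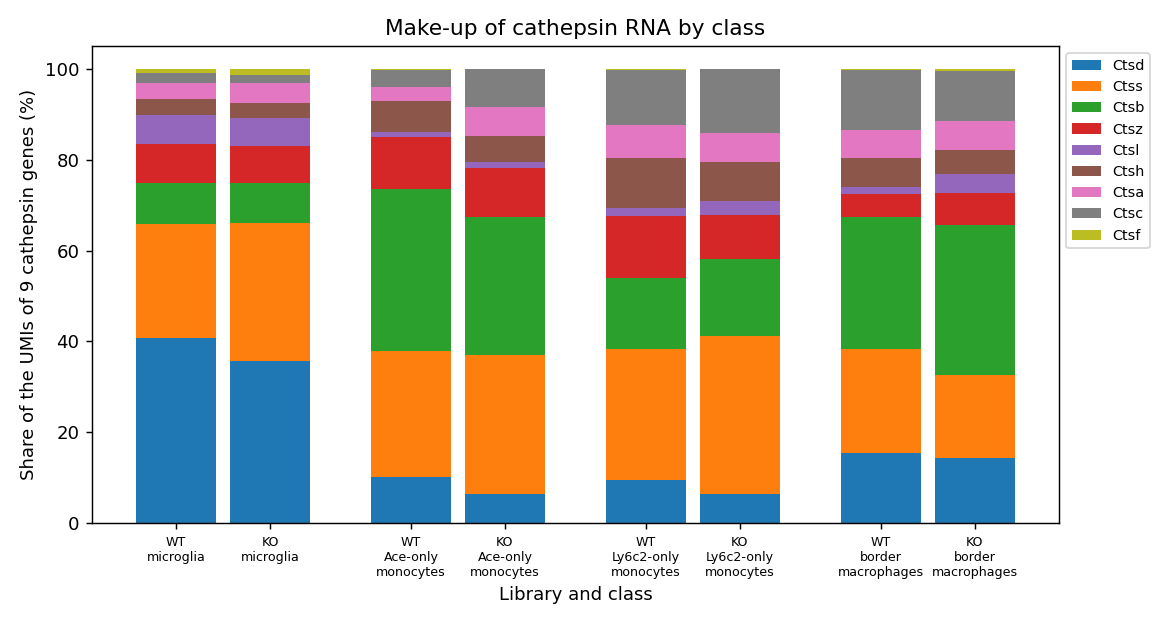
Share of the UMIs of 9 cathepsin genes (%) taken by each gene in microglia, Ace-only and Ly6c2-only monocytes and border macrophages, with the wild-type (WT) and Msn knockout (KO) library side by side. Ctsd and Ctss take most of the microglial bars, and Ctsb and Ctsc take larger shares in the other classes.

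Knockout over wild-type ratios outside microglia rest on few wild-type cells. In monocytes (9 of 10 members measured; 3417 genes measured, median log2 ratio -0.14) Cst3 and Ctsl were higher and 0 members lower, where 19.9% of measured genes were higher and 22.5% lower. Cst3 had a relative log2 ratio of 0.71 (0.61 to 0.81). Ctsl, from 13 and 248 UMIs, had one of 0.59 (-0.21 to 1.52), and its call ended (0.56) when 1 knockout cell with choroid plexus transcripts was left out. The 5 choroid plexus and ependymal markers summed to 0 CPM in wild-type and 1039 CPM in knockout monocytes, and to 21.8 CPM in the latter without that cell. Ctsd went from 606 CPM (486 to 747) to 401 CPM (374 to 429), a relative log2 ratio of -0.46 (-0.78 to -0.12), and passed 1.5-fold only on the CPM scale. The 8 neutrophil markers summed to 2176 CPM in wild-type and 665 CPM in knockout monocytes, with Ly6g and Camp at 0 in the wild-type cells. Their part in these ratios was not tested.

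In border macrophages 4 members were higher and 0 lower among 3855 measured genes, where 39.1% of genes were higher and 34.3% lower, so the count is near the background. Ctsf, with 1 and 9 UMIs and a relative log2 interval of -2.00 to 6.30, reached the floor through the knockout library alone, and without it 3 of 9 were higher. Cst3 had a relative log2 ratio of 1.38 (1.17 to 1.60), Ctsl of 1.73 (0.45 to 3.39, from 5 and 83 UMIs) and Ctsz of 0.79 (0.04 to 1.63). Cd74, the invariant chain gene, was 15286 CPM over 7 wild-type cells and 7062 CPM over 38 knockout cells, so the cells differed in more than the members, and its part was not tested. Under a looser gate, chosen after seeing the data, in which up to 10% of the microglial median of P2ry12 and Tmem119 was allowed (58 and 635 monocytes, 23 and 84 border macrophages), Cst3 was 6392 and 8438 CPM in monocytes, under the threshold at 0.52, and 8579 and 15683 CPM in border macrophages, at 1.01. Cst3 UMIs per cysteine cathepsin UMI were 1.01 (0.916 to 1.11) and 1.45 (1.41 to 1.48) in monocytes and 0.768 (0.633 to 0.931) and 1.61 (1.51 to 1.71) in border macrophages. Knockout lymphoid cells had a ratio of 2.74 (2.43 to 3.09), above the ratios of knockout monocytes and border macrophages. Beside the border values stands the microglial marker level of 10.5% and 16.0% given above, whose part was not tested.

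Over 5 lists of related genes, 34 genes were measured in microglia, of which 4 (11.8%) were higher and 2 (5.88%) lower, both under the shares of all measured genes. By CPM alone, 8 of the 34 (23.5%) fell past 1.5-fold, where 30.3% of all measured genes did: Sort1, Sel1l, Tfe3, Mitf, Fnip1, Lipa, Gnptab and Gga3. Another 3 (8.82%) passed it upward by CPM, where 4.35% did. Of 13 other cathepsin genes only Ctso reached 10 CPM, at 74.8 and 71.5 CPM. Of 18 other cystatin and protease inhibitor genes 2 were measured and 1 was higher: Cstb, the intracellular inhibitor cystatin B, at 67.6 and 118 CPM (relative log2 ratio 1.09). The lysosomal sorting and maturation list had 12 of 13 genes measured, 0 higher and 2 lower: Gnptab, which builds the mannose 6-phosphate tag, at 17.4 and 7.35 CPM, over the floor in the wild-type library only, and Gga3, a sorting adaptor, at 27.5 and 14.2 CPM. Its median relative log2 ratio was 0.09. Lgmn, the protease legumain that processes cathepsins, was abundant and within the threshold at 2995 and 3308 CPM. In the TFEB list 8 of 9 genes were measured, with a median of -0.07. Lamtor1, a lysosomal scaffold, was higher at 139 and 174 CPM (0.62). Tfeb was at 32.3 and 35.7 CPM and Tfe3 at 191 and 107 CPM, both within the threshold relative to the median gene. Among partners and substrates 11 of 12 were measured and 2 were higher: Cd74, the substrate of Ctss, at 118 and 243 CPM (1.33), and H2-DMb1, a class II peptide loader, at 98.7 and 160 CPM (0.99). Monocyte markers summed to 45.1 and 102 CPM in microglia and border markers to 32.5 and 70.3 CPM, and their part in these values was not tested.

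Genes with the most similar profile were sought over 8 values, microglia, Ace-only and Ly6c2-only monocytes and border macrophages in both libraries, among 5769 genes. The measure was the root mean square difference of centred log2 profiles, and cells of a library share depth and free RNA. Nearest to Ctsd was another member, Ctsf (0.25), whose values in both monocyte subsets and the border cells of the wild-type library are 1 UMI each, then Rhoh (0.35) and Zfhx3 (0.43). Nearest to Cst3 were Sft2d1 (0.46) and Herpud1 (0.52), and Herpud1 stood at 333 and 533 CPM in microglia. Nearest to Ctsb were Lmbrd1 (0.29), Oat (0.34) and Cyb5r1 (0.35), and nearest to Ctss were Fermt3 (0.23), Rpn2 (0.23) and Gm43362 (0.25). The wild-type Ace-only, Ly6c2-only and border cells held 47247, 66467 and 23943 UMIs in all. In these classes Oat was at 42.3, 30.1 and 83.5 CPM and Sft2d1 at 63.5, 30.1 and 41.8 CPM. Such values rest on few UMIs, which limits the order of the neighbours.

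The members are spread over the genome, with 3 on chromosome 2 and 2 on chromosome 7 (GRCm39, GENCODE). Cst3 (ENSMUSG00000027447) lies at chr2:148713635-148717887, Ctsa at chr2:164674778-164682961 and Ctsz at chr2:174267304-174280832. Ctsc lies at chr7:87927092-87960096 and Ctsd (ENSMUSG00000007891) at chr7:141929646-141941775. Ctss (ENSMUSG00000038642) lies at chr3:95433963-95463717, Ctsh at chr9:89936205-89958148, Ctsl at chr13:64507151-64518704, Ctsb (ENSMUSG00000021939) at chr14:63358384-63383372 and Ctsf at chr19:4905118-4915986. Genes annotated over 7 members could share reads with them. In microglia the count of each was low beside the member. The highest was Nelfcd, opposite Ctsz, at 20.7 and 20.6 CPM, and Gm49369, on the strand of Ctsd, was at 0.0170 and 0 CPM. A low count does not show whether reads shared by 2 genes were left uncounted, which was not tested.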

How the data were processed

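The values the authors deposited are raw UMI counts, 1 per gene and cell barcode, made with Cell Ranger, version 7.0.0 per the file headers and 6.0 per the labels' protocols. The genome was GRCm39, per the labels' protocols. The sources used here do not give intron or strand settings. The members and lists were chosen with earlier results of these data known. Cells with under 500 genes or over 10% mitochondrially encoded UMIs were left out, and gates needed 1 UMI. No doublet caller was run; microglia passing a further gate were kept apart. UMIs were summed per class and library and divided by the total (CPM). Intervals are exact Poisson, conditional binomial for ratios, or Clopper-Pearson, at 95%. Genes were measured at 10 CPM in microglia or 50 CPM elsewhere, and called at 1.5-fold relative to the median measured gene, by size alone. The ratio code was tested on simulated data. Cells were thinned to 2000 UMIs (seed 1) for shares. All 10 members are named, with genes of the other lists called in microglia (up to 5 a list) and the 3 most similar profiles to 4 members, 1 of which is not reported here; Ctso, Lgmn, Tfeb, the related genes past 1.5-fold on the CPM scale only, Egr1, Jun, Hsp90aa1 and the marker genes were added after their values were seen. Alternatives changed filters, gates, floors, scaling and depth. Python 3.11.15, NumPy 2.4.6, SciPy 1.17.1 and pandas 2.3.3 were used.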

Additional observations from a re-analysis of the deposited data

How the results depend on the processing

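No paired analysis was possible because each genotype had 1 library and no replicate numbers. The count of members past 1.5-fold in knockout microglia, 3 as reported, was 1 on the CPM scale and 1 over all kept cells without a gate, and stayed within 1.5 times under the other settings run. In monocytes the count, 2 as reported, was 1 with at most 5% mitochondrially encoded UMIs, with 1000 genes per cell, with 2 UMIs per gate gene, with mixed cells counted in, with the mean of single-cell CPM, with a 200 CPM floor, on the CPM scale and without the 1 cell with choroid plexus markers; it was 4 in thinned cells and 0 under the looser gate. The looser gate and leaving out that cell were chosen after seeing the data. In border macrophages the count, 4 as reported, was 8 with at most 5% mitochondrially encoded UMIs and 2 with mixed cells, with single-cell means or under the looser gate. The counts of 7 members between classes, monocytes and border macrophages over microglia, each became 0 with mixed cells counted in. Those cells passed the microglial gate by definition, so this setting cannot test the class contrast. Ctsl in monocytes changed sign with mixed cells, from a relative log2 ratio of 0.59 to -0.10. The relative log2 ratio of Cst3 in microglia ran from 0.72 on the CPM scale to 1.15 with a floor of 1 UMI, under which Ctss also passed the threshold (0.71). Ctsd in microglia changed sign, from 0.12 to -0.18 on the CPM scale, -0.10 over all kept cells and -0.01 with mixed cells. The cause of these shifts was not tested. Depth limits the wild-type monocyte and border values.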
